A study of Oryza sativa with 14 samples.

Results

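BGLU3, BGLU16 and BGLU27 are 3 rice genes of the glycoside hydrolase family called beta-glucosidases. They are 3 of 27 genes with a BGLU number that the array measured, out of 17905 genes with a probe set. The 3 genes were chosen on their signals on these same arrays: earlier results had named BGLU16 for its lower signal after ethylene in shoots, and which values picked BGLU3 and BGLU27 is not recorded. Every level and difference of the 3 genes below is therefore a description without a test. The genes (BGLU3, LOC4327593; BGLU16, LOC4336389; BGLU27, LOC4345995) were found by their synonyms in the gene table, and the brightest probe set on average stands for each.

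RNA came from dark-grown rice seedlings of 4 genotypes: mhz1, mhz4 and mhz5, which are mutants in the response to ethylene, and wild type (WT). Roots of all 4 genotypes and shoots of mhz4, mhz5 and WT were sampled after ethylene treatment (3-day-old seedlings, 8 h in the dark, 10 ppm, 28 °C, with the water lowered to below the seeds) and after growth in air. This gave 8 root arrays and 6 shoot arrays, 1 for each of 14 groups. Germination took 2 days in darkness at 37 °C, and no duration, temperature or water level is given for the air groups. Both WT root titles carry the mark mb, whose meaning is not given, so in roots it cannot be told apart from the difference between a mutant and WT. From published work, MHZ1 encodes a histidine kinase, MHZ4 a protein needed to make abscisic acid (ABA) and MHZ5 a carotenoid isomerase upstream of ABA. The labels do not give the alleles or how many seedlings were pooled.

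Beta-glucosidases cut a terminal glucose from small molecules or short sugar chains. Plants store hormones, defence compounds and lignin precursors as inactive glucosides, and a beta-glucosidase can release the active part. The purified rice BGLU16 enzyme acts on coniferin, the glucoside of a lignin precursor (a monolignol). No substrate is given here for BGLU3 and BGLU27. Ethylene is a gaseous hormone that shortens the roots of etiolated rice seedlings and lengthens their coleoptiles, and the effect on roots needs ABA.

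Signals are the authors' intensities after each array was scaled to the same trimmed mean of 500. The median probe set of an array had a signal of 63.0 to 69.7, and a signal of 200 served as the lower limit for testing. With 1 array in each group there is no spread between replicates. The only yardstick is the residual SD of a probe set around a model with 1 level for each genotype and tissue and 1 ethylene effect for each tissue, which mixes array noise with true differences in response. Differences are in log2(signal + 32), a scale that understates the change of dim probe sets. In whole roots or shoots, fewer cells of a type and less RNA per cell cannot be told apart.

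The tissue labels held on marker genes. The summed signal of 5 shoot markers (chlorophyll-binding and Rubisco small subunit genes) was 246 to 2075 on root arrays and 74150 to 107200 on shoot arrays, with RBCS1 at 20.8 or less on all 14. That of 7 root markers (silicon, ammonium, nitrate and sodium transporters) was 26280 to 50120 on root arrays and 2074 to 3343 on shoot arrays. The highest shoot-marker sum in roots was on the mhz4 ethylene array, where OsrbcS read 1528, against 116 to 193 on the other root arrays. WT root air and WT shoot air had the lowest median Spearman correlations with the other arrays of their tissue (0.981 each, against 0.985 to 0.987 for the rest).

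BGLU16 was lower after ethylene in every genotype and tissue, and lower in the mhz4 and mhz5 mutants than in WT in roots but hardly in shoots. In ethylene-treated roots it read 238 in mhz1, 43.6 in mhz4, 52.8 in mhz5 and 207 in WT. In air-grown roots it read 481 in mhz1, 142 in mhz4, 107 in mhz5 and 539 in WT. All 4 ethylene values lay below the air value of their own genotype, and both mhz4 and mhz5 lay below mhz1 and WT in each gas.

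In shoots BGLU16 read 26.2 in mhz4, 43.4 in mhz5 and 35.3 in WT after ethylene. In air the shoot values were 105, 143 and 142 in the same order of genotypes. The 3 ethylene values did not overlap the 3 air values, and the genotypes lay close together within each gas. The dimmest readings lay below the median probe set of their arrays, so that their fold differences are uncertain.

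For BGLU16, ethylene minus air in log2(signal + 32) was -0.93 in mhz1, -1.20 in mhz4, -0.71 in mhz5 and -1.26 in WT roots. In shoots it was -1.24 in mhz4, -1.21 in mhz5 and -1.37 in WT. The model put the mean effect at -1.02 in roots and -1.27 in shoots, with a residual SD of 0.14. The ratio of ethylene to air in roots was 0.494 in mhz1, 0.307 in mhz4, 0.496 in mhz5 and 0.384 in WT, with the mhz4 and mhz5 ethylene values below the median probe set.

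Between genotypes, BGLU16 in mhz4 roots differed from WT roots by -1.66 in ethylene and -1.71 in air, and in mhz5 roots by -1.49 and -2.04. In mhz1 roots it differed by 0.18 in ethylene and -0.15 in air, on either side of 0. In shoots mhz4 differed from WT by -0.21 and -0.34, and mhz5 by 0.16 and 0.01 (ethylene and air). The lowering in mhz4 and mhz5 was seen in roots, where the fitted difference was -1.69 and -1.77, against -0.28 and 0.09 in shoots. BGLU16 reached the limit of 200 on 4 arrays only, those of mhz1 and WT roots. Its mhz4 and mhz5 root signals and all its shoot signals (26.2 to 143) lay below that limit. The shoot differences are therefore less certain, on a scale that understates the change of dim probe sets.

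In mhz4 and mhz5 the root signals were close to those of shoots. In WT, BGLU16 was higher in roots than in shoots by 1.83 in ethylene and 1.72 in air. In mhz4 the difference between root and shoot was 0.38 and 0.35, and in mhz5 it was 0.17 and -0.34. The fitted difference of roots minus shoots in air over the 3 genotypes was 0.56, and 0.0002 without the WT arrays.

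BGLU27 was bright in shoots and dim in roots, and its root signal after ethylene was 0.465 to 0.540 times that in air. In ethylene-treated roots it read 441 in mhz1, 216 in mhz4, 199 in mhz5 and 439 in WT. In air-grown roots it read 862 in mhz1, 416 in mhz4, 428 in mhz5 and 813 in WT. The ratio of ethylene to air was 0.512 in mhz1, 0.520 in mhz4, 0.465 in mhz5 and 0.540 in WT.

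The mhz4 and mhz5 mutations went with a shift of about the same size in roots. The ratio of mhz4 to WT roots was 0.493 in ethylene and 0.511 in air, and that of mhz5 to WT roots was 0.454 and 0.527. The ratio of mhz1 to WT roots was 1.01 and 1.06. Root signals of BGLU27 thus fell into 3 steps: mhz1 and WT in air were highest, the 2 ethylene arrays of mhz1 and WT lay with the 2 air arrays of mhz4 and mhz5 in the middle, and mhz4 and mhz5 in ethylene were lowest.

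The middle step of BGLU27 spanned 416 to 441, with gaps between neighbouring arrays of 0.007 to 0.041 on the log2 scale, under the residual SD of 0.073. The gaps to the steps below and above were 0.85 and 0.84. On this scale the ethylene difference in roots lay between -0.84 and -0.99 in all 4 genotypes, and the mhz4 and mhz5 differences from WT between -0.88 and -1.03.

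Shoots differed from this pattern. BGLU27 read 5704 in mhz4, 5120 in mhz5 and 4056 in WT after ethylene. In air it read 5936 in mhz4, 6139 in mhz5 and 5076 in WT. The ethylene minus air difference was -0.06 in mhz4, -0.26 in mhz5 and -0.32 in WT, negative in each but smaller than in any root. The mutants lay above WT here, by 0.49 (ethylene) and 0.22 (air) in mhz4 and by 0.33 and 0.27 in mhz5, whereas in roots they lay below it.

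BGLU27 was lower in roots than in shoots in all 6 matched pairs. Roots minus shoots was -4.53 and -3.74 in mhz4 (ethylene and air), -4.48 and -3.74 in mhz5, and -3.12 and -2.60 in WT. On the mhz4 root ethylene array, where shoot markers were highest among roots, BGLU27 was second lowest of all arrays at 216. BGLU33, which read 949 to 1458 in shoots, also had its highest root value there, 42.4, against 25.1 to 38.4 on the other root arrays. The part of the shoot markers in these values was not tested.

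BGLU3 differed in the other direction by its brightest probe set. It was higher in the mutants than in WT in roots and shoots. In every genotype its ethylene value was above its air value, in some pairs by less than the residual SD. In ethylene-treated roots it read 184 in mhz1, 380 in mhz4, 385 in mhz5 and 43.9 in WT. In air-grown roots it read 93.1 in mhz1, 325 in mhz4, 229 in mhz5 and 34.5 in WT. Both WT root values lay below the 6 mutant root values and below the median probe set of the array, so the size of the fold rests on a dim WT signal.

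In shoots BGLU3 read 2650 in mhz4, 2444 in mhz5 and 1283 in WT after ethylene. In air it read 2100 in mhz4, 2321 in mhz5 and 398 in WT. The WT shoot air array was the lowest shoot array, level with the mhz4 and mhz5 root ethylene arrays at 380 and 385. The 4 mutant shoot values all exceeded both WT shoot values.

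The mutant minus WT difference of BGLU3 in roots was 1.51 (ethylene) and 0.91 (air) in mhz1, 2.44 and 2.42 in mhz4, and 2.46 and 1.97 in mhz5. In shoots it was 1.03 and 2.31 in mhz4, and 0.91 and 2.45 in mhz5. The fitted differences in shoots, 1.67 for mhz4 and 1.68 for mhz5, were 0.96 and 0.98 without the WT shoot air array.

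The ethylene minus air difference of BGLU3 was 0.79 in mhz1, 0.21 in mhz4, 0.68 in mhz5 and 0.19 in WT roots. In shoots it was 0.33 in mhz4, 0.07 in mhz5 and 1.61 in WT. Its fitted mean in shoots was 0.67, and 0.20 without the WT shoot air array. The residual SD was 0.41, the widest of the 3 genes, and the root mean of 0.46 was only slightly larger. The differences in mhz4 and WT roots and in mhz4 and mhz5 shoots were smaller than this SD. Roots minus shoots was -2.57 to -4.11 over the 6 matched pairs, so BGLU3, like BGLU27, was dimmer in roots.

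**Figure D1:**
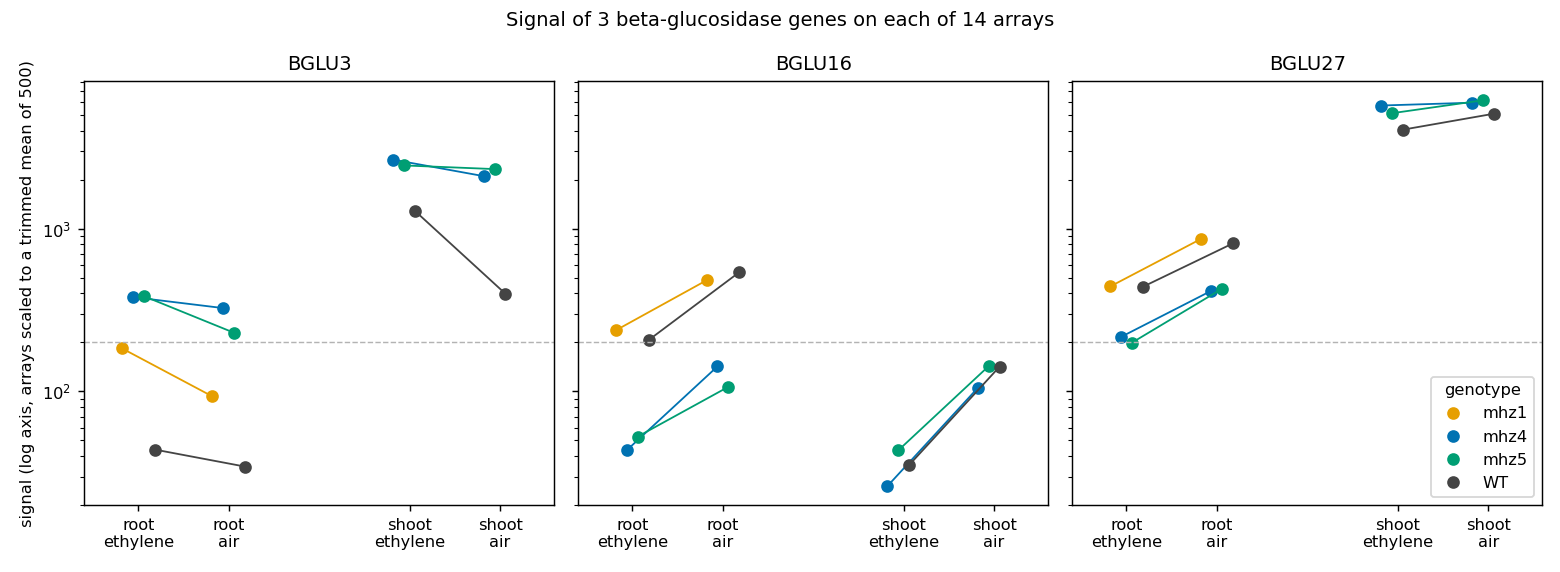
Signal of BGLU3, BGLU16 and BGLU27 (log axis) on each of 14 arrays, by tissue and gas, with 1 point per array and a line joining the ethylene and air arrays of 1 genotype. The dashed line marks a signal of 200. BGLU16 and BGLU27 slope the same way in all root pairs, with mhz4 and mhz5 below mhz1 and WT, while BGLU3 has WT lowest in both tissues.

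**Figure D2:**
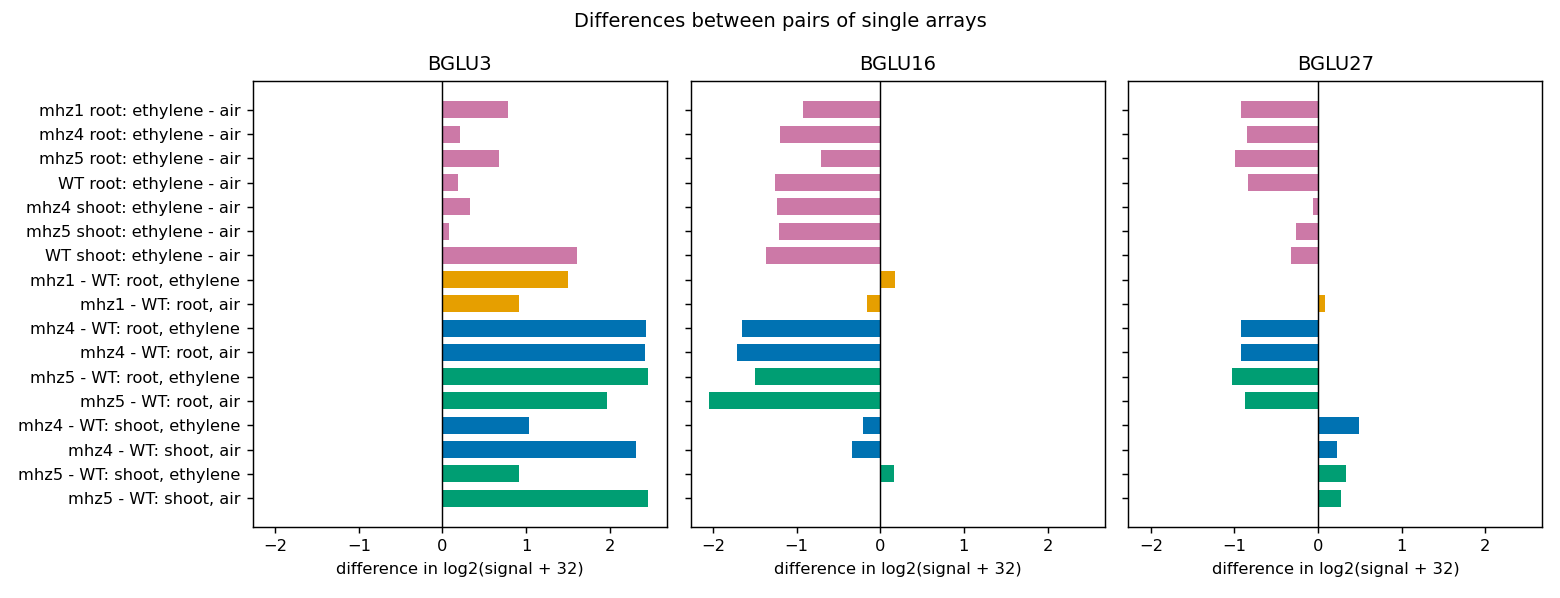
Differences in log2(signal + 32) between pairs of single arrays for BGLU3, BGLU16 and BGLU27: ethylene minus air in each genotype and tissue (pink), and mutant minus WT in each tissue and gas (mhz1 orange, mhz4 blue, mhz5 green). Bars have no error, since each rests on 2 arrays. All BGLU3 bars are positive, and the mhz4 and mhz5 bars of BGLU27 are negative in roots and positive in shoots.

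The order of levels was read with the residual SD of each gene as the yardstick. For BGLU27, 7 of the 13 gaps between neighbouring arrays exceeded it, and the gap from the highest root array (mhz1 in air) to the lowest shoot array (WT in ethylene) was 2.19. For BGLU16, 9 of 13 gaps exceeded it, with mhz4 shoots in ethylene lowest at 26.2 and WT roots in air highest at 539. For BGLU3 only 5 of 13 did, so most neighbours in its order, among them the 4 mutant shoot arrays from 2100 to 2650, did not differ beyond that spread. A gap compares single arrays and the residual SD rests on 5 degrees of freedom, so gaps just over it do not settle the order. For BGLU16 these included gaps of 0.153 and 0.165, against 0.145.

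BGLU16 had a second probe set that reached 200 on 1 array only (213 in WT roots in air). It gave -0.65 for ethylene in roots, -0.74 in shoots, -0.96 for mhz4 roots and -1.15 for mhz5 roots, with the same signs as the brighter probe set and smaller sizes in these 4 comparisons. In mhz5 roots it read 44.9 in ethylene and 47.6 in air, a pair that barely differed, where the brighter set read 52.8 and 107. For mhz4 against WT in shoots it gave -0.35, a larger difference than the -0.28 of the brighter set. The name of the brighter BGLU16 probe set ends in x_at, which Affymetrix gives to sets with probes that may match other transcripts.

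BGLU3 had 2 further probe sets. The brighter of them, at 49.8 to 168 in roots, gave 1.22 for mhz4 and 0.98 for mhz5 against WT in roots, the same sign as the brightest set. The dimmer read 25.4 to 37.7 in all roots and gave 0.19 and 0.08, so it did not resolve the genotypes there. For mhz1 against WT in roots the brighter and the dimmer further set gave 0.23 and -0.01, where the brightest gave 1.21. After ethylene the dimmer set was slightly lower than in air in mhz1, mhz4 and mhz5 roots and in mhz5 shoots (194 and 203). It was higher in WT roots and in mhz4 and WT shoots. The brighter further set was above its air value in every pair, but barely so in mhz4 roots (164.1 and 164.0). BGLU27 had 1 probe set.

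**Figure D3:**
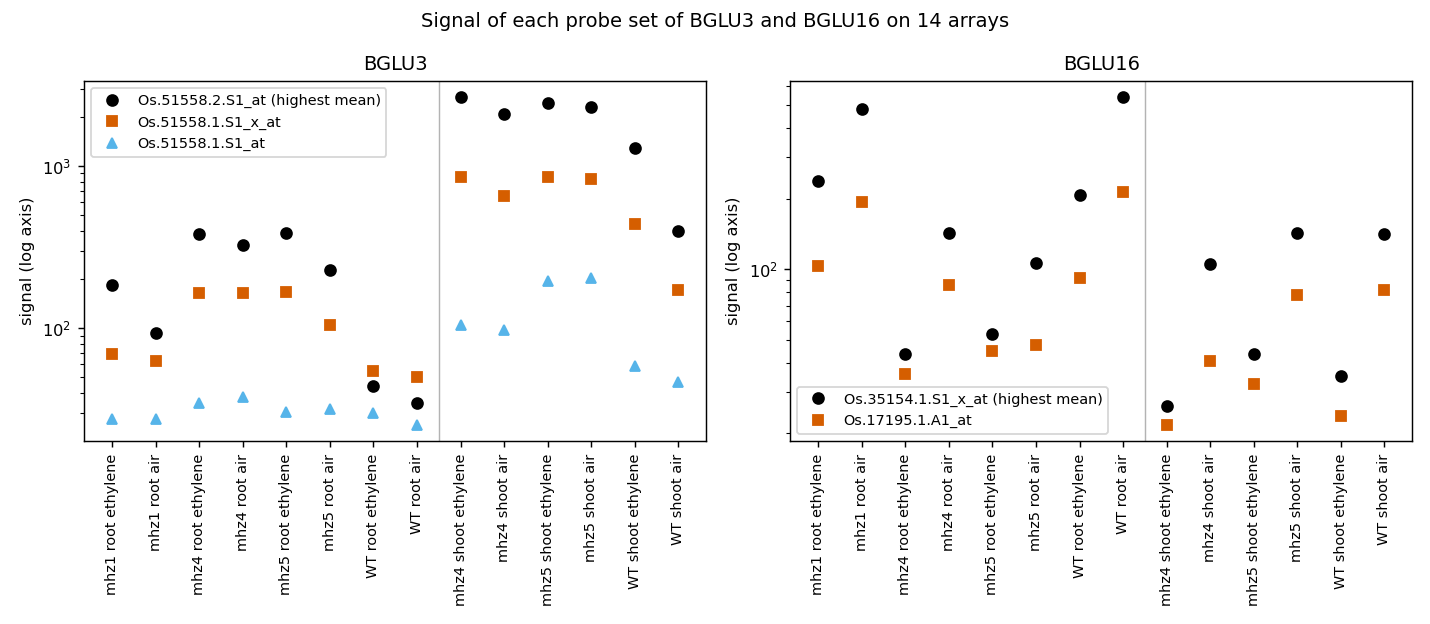
Signal (log axis) of each probe set of BGLU3 and BGLU16 on 14 arrays, with root arrays left of the grey line and shoot arrays right of it. The 2 BGLU16 sets part in mhz5 roots, where the dimmer reads 44.9 in ethylene and 47.6 in air, and the dimmest BGLU3 set stays at 25.4 to 37.7 across the roots.

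BGLU16 and BGLU27 varied together in roots and BGLU3 ran against both. Over the 8 root arrays, which share genotypes and gases, Pearson's r of log2(signal + 32) was 0.96 between BGLU16 and BGLU27, -0.84 between BGLU3 and BGLU16 and -0.78 between BGLU3 and BGLU27. Over the 6 shoot arrays the same pairs gave 0.45, -0.43 and 0.42. These values describe 14 arrays and were not tested.

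Genes with the most similar pattern were sought among 2091 named genes, by Pearson's r over the 14 arrays after the mean of each tissue was subtracted. For BGLU16 they were the trehalose phosphate phosphatase gene OsTPP4 (0.93), OsTLP13 (0.93), BGLU28 (0.92), the CASP-like membrane protein gene OsCASPL2B1 (0.92) and the glycosyltransferase gene GT43C (0.91). For BGLU27 they were the xanthine dehydrogenase gene XDH (0.96), the kinase gene CIPK32 (0.93), the homeobox gene Hox22 (0.92), the acyltransferase gene AT5 (0.90) and the potassium transporter gene HAK23 (0.89). For BGLU3 they were OsTHT2 (0.91), BGLU32 (0.91), the calcium-dependent kinase gene CPK17 (0.90), OsTBL3 (0.89) and D-enzyme, which rearranges starch glucans (0.88). Among these named genes, a BGLU gene was among the 5 nearest for BGLU16 and for BGLU3. The 21 BGLU genes with a signal of 200 on 2 arrays were all among the 2091, and ranks among all genes were not taken. These 2 places were not tested and cannot be read as a trait of the family. Of all 14588 genes compared, 34 had an r over 0.9 with BGLU16, 43 with BGLU27 and 25 with BGLU3. The subtraction leaves out differences between tissues. Without it, r was negative for BGLU28 (-0.18) and GT43C (-0.08) with BGLU16 and for OsTBL3 (-0.69) with BGLU3. The same held for Hox22 (-0.545), AT5 (-0.79) and HAK23 (-0.51) with BGLU27, and the other genes listed stayed positive.

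Neighbours in the genome did not share these patterns throughout. In the gene table BGLU27 lies next to BGLU28, BGLU16 next to BGLU18 with 2 genes between it and BGLU14, and BGLU3 next to BGLU2, which had no probe set. BGLU28 read 280 to 528 in roots and 790 to 1196 in shoots, brighter in shoots as BGLU27 was. In the fit over all probe sets BGLU28 was lower in mhz4 than in WT roots (-0.35, SE 0.09, limma adjusted p = 0.0408), a call lost under 6 of 12 alternatives, among them quantile normalization, no filter on dim probe sets and the fit without the WT root air array. Its ethylene difference in roots did not pass (-0.27, limma adjusted p = 0.0569). BGLU18, which like BGLU16 encodes a monolignol beta-glucosidase, read 32.4 to 76.6 in roots and 276 to 485 in shoots, higher in shoots where BGLU16 in WT was higher in roots. It passed in none of the 7 comparisons of gas or genotype (limma adjusted p of 0.32 or more). BGLU14 stayed at 15.6 to 23.8 on all arrays.

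The other 24 BGLU genes give the setting of the family. Of these, 18 reached a signal of 200 on at least 2 arrays and were tested with limma over 23186 probe sets, and 6 did not (highest single value 237). Genotypes stand in as replicates in this fit, so that its p-values do not measure the spread between seedlings. In roots after ethylene 2 rose and 2 fell of the 18, against 4.91% of all probe sets called. BGLU31, a vacuolar transglucosidase, rose by 0.68 (SE 0.11, limma adjusted p = 0.0107, higher in 4 of 4 genotypes), and BGLU32 rose by 0.44 (adjusted p = 0.0351). The BGLU32 call was lost under 7 of 14 alternatives. BGLU30 fell by 1.07 (SE 0.20, adjusted p = 0.0222, lower in 4 of 4), and BGLU26 fell by 0.86 (adjusted p = 0.0158). The median of the 18 was -0.12, beside 0.01 over all probe sets. Without the mhz4 arrays none of the 4 passed limma's threshold, with adjusted p of up to 0.16 over all alternatives.

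In shoots after ethylene none of the 18 passed limma's threshold, against 2.21% of all probe sets called. At an unadjusted limma p under 0.05 there were 6, and the share of all probe sets at that limit was not counted. BGLU28 differed by -0.32 (limma adjusted p = 0.0826). The difference in ethylene effect between roots and shoots was past the threshold in none of them either, against 0.556% of all probe sets. At an unadjusted limma p under 0.05 there were 2 for this difference, again without a count over all probe sets. For the 3 chosen genes that difference was 0.25 for BGLU16, -0.69 for BGLU27 and -0.21 for BGLU3, given here without a test.

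Mutant roots held BGLU genes that moved in either direction. Against WT, 2 were higher and 4 lower in mhz4 roots (14.8% of all probe sets called), and 3 higher and 2 lower in mhz5 roots (9.57%). BGLU36, whose Arabidopsis counterpart SFR2 remodels chloroplast membrane lipids in freezing, was higher by 0.90 in mhz4 (limma adjusted p = 0.00241) and 0.80 in mhz5 (0.00433), and BGLU32 was higher by 0.62 and 0.78. BGLU36 reached 200 on 5 mutant root arrays only. It entered the test through the group where it was higher, so its calls are not independent support. BGLU20 was lower by 0.72 in mhz4 (limma adjusted p = 0.00697) and 0.81 in mhz5 (0.00543), and BGLU10 by 0.63 and 0.75. A further BGLU10 probe set was also lower in the roots of both mutants. Another read 192.5 and 250.4 in mhz4 and 199.5 and 192.8 in mhz5, against 255.5 and 246.4 in WT (ethylene and air). The further BGLU36 probe sets read 35.3 or less in all roots. BGLU30 had the widest called difference in mhz4 roots, lower by 1.12 (adjusted p = 0.0372), a call lost under 3 of 12 alternatives. BGLU31 was higher by 0.90 in mhz5 roots (adjusted p = 0.0116), lost without the WT root air array. The calls of BGLU36, BGLU20 and BGLU10 held without the WT root air array, and those of BGLU32 in both mutants did not (adjusted p = 0.1 and 0.0653). In mhz1 roots BGLU13 was higher by 0.70 (adjusted p = 0.0193), the 1 of 18 past the threshold beside 1.25% of all probe sets, and it was lost without the WT root air array.

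In mutant shoots 4 of the 18 were higher and 4 lower in mhz4 (26.3% of all probe sets called), and 2 higher and 1 lower in mhz5 (18%). BGLU7, which in the test tube cuts short glucan chains, was lower by 0.51 in mhz4 (limma adjusted p = 0.00349) and 0.43 in mhz5 (0.0103). BGLU6, which can release gibberellins from their glucose esters, was lower by 0.61 in mhz4. BGLU30 was lower by 1.34 in mhz4 (limma adjusted p = 0.0128) and BGLU8 by 0.77, while BGLU34 was higher by 0.84, BGLU32 by 0.70, BGLU20 by 0.57 and BGLU31 by 0.53. The BGLU34 call (limma adjusted p = 0.0490) was lost under 9 of 12 alternatives, and the BGLU31 call in mhz4 under 4 of 12. In mhz5 BGLU31 was higher by 0.67 and BGLU33 by 0.48. Only BGLU6 and BGLU7 in mhz4 passed without the WT shoot air array, and none of the 18 did in mhz5 then.

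Most of the family differed between tissues. Of the 18, 6 were higher and 11 lower in roots than in shoots in air, where 76.2% of all probe sets were called, so that the share itself says little. In air, the fit put BGLU33 lower in roots by 4.24 and BGLU34 higher by 3.79. BGLU33 and BGLU18 reached 200 on the 6 shoot arrays only, and BGLU36 on 5 mutant root arrays only. They entered the test through the tissue where they were higher, so their tissue calls are not independent support. As with BGLU27 and BGLU3, no root value overlapped a shoot value for 11 of the 18, by the brightest probe set of each gene. Of these, 8 were brighter in shoots and 3 in roots. The share of all probe sets without overlap was not counted, so this count cannot be read as a trait of the family. The 3 brightest of the 24 were BGLU7 (12310 to 14090 in roots, 14740 to 22090 in shoots), BGLU12 (7193 to 10740 and 11600 to 15110) and BGLU6 (6755 to 9912 and 1580 to 3014).

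By limma's contrast, the effect of a mutation differed between roots and shoots for some of the 18. For mhz4, 2 were more positive and 3 more negative in roots (27.8%, against 24.1% of all probe sets). For mhz5 these were 1 and 2 (16.7%, against 10.9%). With so few genes, these shares say little about the family. The alternatives were not run on these contrasts, so their dependence on the WT air arrays is not known. BGLU20 was the widest apart, lower than WT in the roots of both mutants and higher by 0.57 in mhz4 shoots (limma adjusted p = 0.00939), at -1.29 (limma adjusted p = 0.00298) and -1.17 (0.00850) for roots minus shoots. BGLU27 had a difference of the same sign and size, -1.28 for mhz4 and -1.25 for mhz5, and BGLU16 had -1.41 and -1.85, both without a test.

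**Figure D4:**
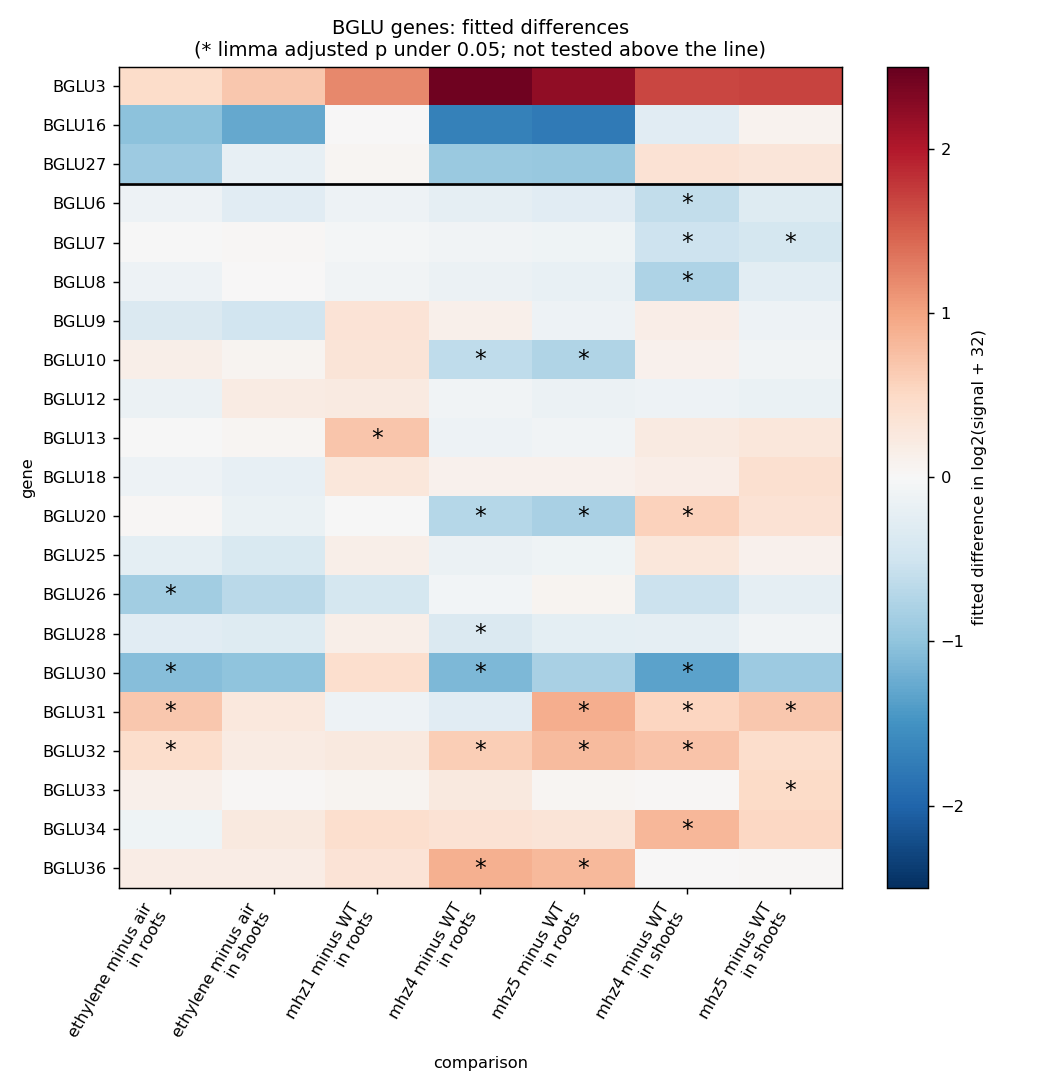
Fitted differences in log2(signal + 32) for the 3 chosen genes (above the line, not tested) and the 18 tested BGLU genes in 7 comparisons of gas or genotype, red for higher and blue for lower. Stars mark a limma adjusted p under 0.05. BGLU16 and BGLU27 are blue for ethylene, mhz4 and mhz5 in roots, and BGLU3 is red throughout.

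Genes that make monolignols and lignin were counted because BGLU16 acts on a monolignol glucoside. Of 24 tested, 1 rose and 2 fell in roots after ethylene (12.5%, against 4.91% of all probe sets), and 2 fell in shoots (8.33%, against 2.21%). The cinnamyl alcohol dehydrogenase gene CAD6 fell by 1.05 in roots (limma adjusted p = 0.00628) and by 1.01 in shoots (adjusted p = 0.0249). In mhz4 roots 3 were higher and none lower (12.5%, against 14.8%), and in mhz5 roots none was higher and 1 lower (4.17%, against 9.57%). In shoots 2 were higher and 3 lower in mhz4 (20.8%, against 26.3%), and 1 higher and 4 lower in mhz5 (20.8%, against 18%). The laccase gene LAC10 was higher by 1.38 in mhz4 roots (adjusted p = 0.0150), and CAD6 was not called in either mutant. Of 13 wall glucan hydrolases and transglucosylases tested, 1 fell in roots after ethylene (GLU13, -0.43, adjusted p = 0.0345; 7.69%, against 4.91%). In mhz4 roots 2 were higher and none lower (15.4%, against 14.8% of all probe sets), and in mhz5 roots none was higher and 1 lower (7.69%, against 9.57%). In shoots 7 were lower in mhz4 (53.8%, against 26.3%) and 2 lower in mhz5 (15.4%, against 18%), with none higher in either. With so few genes, the shares of both lists say little. The alternatives were not run on these lists, so their dependence on the WT air arrays is not known.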

How the data were processed

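Total RNA (6 µg) was labelled with biotin and hybridised to 1-colour Affymetrix rice arrays, per the labels' protocols. The authors deposited 1 linear intensity per probe set and array, and the submitters' processing notes name MAS5. Neither its version and settings nor a genome build is given in the sources used here. Of 57381 probe sets, 123 controls were left out, and arrays were scaled (factors 3.87 to 4.10) to a mean of 500 over the values between the lowest and highest 2%. The deposited annotation gave 22436 probe sets 1 gene, 95 several and 34727 none here. All 17905 genes were found in the gene table of rice, where 31 carry a BGLU number (a gene with both BGLU1 and BGLU7 was called BGLU7). Probe set sequences and protein sequences were not used here.

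One limma model (version 3.58.1, R 4.3.3) on log2(signal + 32) had 7 genotype-by-tissue terms and 2 ethylene terms, with a trended prior, 5 residual degrees of freedom and residual SDs with a median of 0.12. It tested the 23186 probe sets with a signal of 200 or more on 2 arrays, at a Benjamini-Hochberg adjusted p of 0.05. Its contrast of roots with shoots is that of the air levels. The number of arrays limits the precision. Tests of the 3 contrasts between tissues of an effect were added after seeing the data. Values were named for the 3 chosen genes on every array, for other BGLU genes past a threshold or among the 3 brightest, for genomic neighbours (added later), and for the 5 most similar named genes. The members and lists were chosen with earlier results of these data known. A list of UDP-glucosyltransferases had no gene by its names, and 9 seed storage genes summed to 735 to 1317 on all arrays. Alternatives were the pseudocount, scaling, filter, variance trend, arrays fitted and other probe sets.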

Additional observations from a re-analysis of the deposited data

Results flagged for a closer look

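The effects of mhz4 or mhz5 on some BGLU genes differed between roots and shoots by limma's contrast of the 2 effects (adjusted p under 0.05), and their values are roots minus shoots in log2(signal + 32). These were 27.8% of the 18 for mhz4 and 16.7% for mhz5, against 24.1% and 10.9% of all probe sets. The alternatives were not run on this contrast. For BGLU20 the value was -1.29 for mhz4 and -1.17 for mhz5, with signals of 392 and 420 in mhz4 roots (ethylene and air), 393 and 366 in mhz5 roots, and 720 and 657 in WT roots. For BGLU36 it was 0.88 and 0.78, and for BGLU10 -0.73 and -0.68. For BGLU31 it was -0.81 and for BGLU7 0.43, both for mhz4. BGLU36 entered the test through mutant roots only. A further BGLU36 probe set, at 200 on 1 array, lay above WT in mutant shoots. It read 121 and 239 in mhz4 shoots and 156 and 135 in mhz5 shoots, against 82.6 and 97.4 in WT. A further BGLU10 set was brighter in roots (192.5 to 256.9) than in shoots (76.1 to 129.6), unlike the brightest set.

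In the genes chosen on these arrays, every mutant root array lay below its WT partner and every mutant shoot array above it for BGLU27 in mhz4 (-1.28) and mhz5 (-1.25) and for BGLU16 in mhz5 (-1.85). These differences were not tested. For BGLU16 the shoot side is small (0.16 in ethylene, 0.01 in air) at signals of 43.4 and 143 in mhz5, against 35.3 and 142 in WT.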

How the results depend on the processing

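No paired analysis was possible because every title carries the same replicate number and each group is 1 array. Of 255 alternative values for BGLU3, BGLU16 and BGLU27, 204 moved by less than the residual SD, 50 moved further and 1 further one changed sign (BGLU3 in mhz1 roots). Part of the 204 could not move, since leaving out arrays that a contrast does not use returns the same value. BGLU3 in mhz4 roots, for example, gave 2.4309 again without mhz1 and without mhz5. The 204 are thus no measure of stability. Of 202 alternative counts 163 stayed within 1.5 times. The cause of these moves was not tested, except that a larger pseudocount shrinks differences of dim probe sets by construction and that fits on fewer arrays have fewer residual degrees of freedom. Low signal over background limits BGLU16 in ethylene and in shoots, and BGLU3 in WT roots.

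With the larger pseudocount, BGLU3 differed from WT by 0.65, 1.52 and 1.36 in mhz1, mhz4 and mhz5 roots and by -2.29 between roots and shoots. BGLU16 then gave -0.69 and -0.66 for ethylene (roots, shoots) and -1.13 and -1.20 for mhz4 and mhz5 roots, and BGLU27 gave -0.74 for ethylene in roots, -0.76 and -0.78 for mhz4 and mhz5 roots and -3.14 for roots minus shoots. BGLU16 in mhz1 roots, 0.0114 otherwise, was then -0.0012, a change of sign within the residual SD. With the smaller one (8), BGLU3 gave 2.93 and 2.70 for mhz4 and mhz5 roots, and BGLU16 gave -1.20 and -1.69 for ethylene and -1.96 and -2.04 for mhz4 and mhz5 roots. Under quantile normalization BGLU27 gave -0.83 and -0.88 for mhz4 and mhz5 roots.

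With the brighter further probe set BGLU3 gave 0.23, 1.22 and 0.98 in mhz1, mhz4 and mhz5 roots and -1.92 for roots minus shoots. With the dimmer one it gave 0.006 and 0.071 for ethylene (roots, shoots), -0.0075 in mhz1 roots, against 1.21 with the brightest set, 0.19 and 0.079 in mhz4 and mhz5 roots, 0.66 in mhz4 shoots and -1.08 for roots minus shoots. With its second probe set BGLU16 gave -0.65 and -0.74 for ethylene and -0.96 and -1.15 in mhz4 and mhz5 roots.

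Without the WT arrays BGLU3 gave 0.20 for ethylene in shoots, and roots minus shoots in air, the tissue contrast meant throughout, was 0.0002 for BGLU16 and -3.74 for BGLU27. Without the WT shoot air array BGLU3 gave 0.20 for ethylene in shoots, 0.96 and 0.98 in mhz4 and mhz5 shoots and -3.34 for roots minus shoots, and BGLU27 gave 0.44 and 0.38 in mhz4 and mhz5 shoots. Without the WT root air array BGLU16 gave 0.17, -1.53 and -1.61 in mhz1, mhz4 and mhz5 roots. Roots minus shoots was 0.98 for BGLU16 and -3.15 for BGLU27 without mhz5, and -3.17 for BGLU27 without mhz4, where BGLU27 also gave -0.29 for ethylene in shoots.

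Counts of probe sets called, with the count among the 18 other BGLU genes where it moved, were as follows. For ethylene in roots (1139 and 4) they were 699 and 1 without WT, 499 and 2 without mhz1, 487 and 0 without mhz4, and 650 and 2 without the WT root air array, while 2 BGLU genes were called without mhz5 and with root arrays alone. For ethylene in shoots (512 and 0) they were 338 without mhz1, 48 without mhz4, 86 without mhz5, 781 and 1 without the WT shoot air array and 210 and 1 with shoot arrays alone, while 1 BGLU gene was called without WT and without the WT root air array and 2 with no filter. For mhz1 roots (289 and 1) they were 67 and 0 without mhz4, 189 and 0 without mhz5, 66 and 0 without the WT root air array and 118 with root arrays alone. For mhz4 roots (3443), leaving out WT root air gave 853. For mhz5 roots (2219 and 5) they were 1253 without mhz4 and 644 and 3 without the WT root air array. For mhz4 shoots (6108 and 8) they were 1572 and 2 without the WT shoot air array and 3536 with shoot arrays alone. For mhz5 shoots (4165 and 3) they were 2066 without mhz4, 747 and 0 without the WT shoot air array and 1979 with shoot arrays alone, and 5 BGLU genes were called on deposited values with 1 common factor.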
